A study of Homo sapiens with 6 samples.

Results

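AP-1 is a family of transcription factors that bind DNA as pairs of basic leucine zipper (bZIP) proteins. The 9 genes described here encode 4 FOS proteins (FOS, FOSB, FOSL1 and FOSL2), 3 JUN proteins (JUN, JUNB and JUND) and the related bZIP proteins ATF3 and BATF3. They were taken from a deposited table of 60461 genes by gene name, and all 9 had 1 matching row each. RNA was sequenced from MDA-MB-231, an established human triple-negative breast cancer cell line, in 2 groups of 3 libraries. In the first group the cells carried an adenovirus coding for the p110 form of ADAR1, the enzyme that turns adenosine into inosine in double-stranded RNA. In the second they carried an adenovirus coding for enhanced green fluorescent protein (GFP). Both viruses were given at a multiplicity of infection of 200 to cells in serum-supplemented medium. Fresh medium was supplied 16 h later and RNA was taken at 48 h, so all 6 cultures were infected and none was an uninfected control. The labels call the replicates biological and do not describe separate cultures, so the p-values given measure only the spread between these libraries.

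A JUN protein can pair with itself or with a FOS, ATF or BATF protein, whereas FOS proteins bind DNA only with a partner. Growth factors and stress act on these genes through MAP kinases, which phosphorylate factors at the FOS promoter and the JUN protein itself. FOS, FOSB, JUN, JUNB and ATF3 are immediate early genes, with short-lived transcripts that rise soon after a signal. FOSL1 and FOSL2 encode FRA-1 and FRA-2, which lack the strong activation domain of FOS. In triple-negative breast cancer lines FRA-1 is known as an abundant AP-1 subunit that drives invasion.

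Library totals were 74696405, 98799000 and 76601807 counts in ADAR1 p110 replicates 1 to 3, and 72741235 to 99589278 in the GFP replicates. ADAR itself had 1006 ± 13.2 CPM in ADAR1 p110 libraries and 267 ± 8.67 CPM in GFP libraries (SD, n = 3 each), where CPM is the read count scaled to library size with TMM factors. ADAR1 p110 replicate 1 and GFP replicate 2 lay apart from the other 4 libraries on the second principal component, so counts of calls are also given without them. Of 18899 genes tested, 1.95% were higher and 2.96% lower in ADAR1 p110 cells, 4.91% in all (quasi-likelihood test of edgeR, adjusted p under 0.05 by Benjamini-Hochberg). When both libraries that lay apart were left out, 6.07% of 19465 genes were higher and 7.32% lower, 13.4% in all. These libraries were picked by their place in these same data. Leaving them out can narrow the spread within groups, so calls gained that way are less certain than their adjusted p. Leaving out ADAR1 p110 replicate 1 alone gave 795 higher and 1017 lower genes, and leaving out any other library gave 100 to 247 higher and 296 to 425 lower. With scaling by library size alone, 510 genes were higher and 479 lower, and with TMM 368 were higher and 559 lower. The receptor genes ESR1 and PGR averaged at most 0.0391 CPM in either group. The 4 mesenchymal markers had a median log2 fold change of -0.18. VIM averaged 2179 CPM in ADAR1 p110 cells and 1952 CPM in GFP cells, CD44 392 CPM in ADAR1 p110 cells and 469 CPM in GFP cells, and ZEB1 87.5 CPM in ADAR1 p110 cells and 94.3 CPM in GFP cells, while SPARC was low at 1.25 CPM in ADAR1 p110 cells and 1.53 CPM in GFP cells. ERBB2 was at 90.1 CPM in ADAR1 p110 cells and 85.8 CPM in GFP cells. Of 5 tested luminal and receptor markers 1 was called, the cadherin gene CDH1, at 4.15 CPM in ADAR1 p110 cells and 2.80 CPM in GFP cells. The 7 listed markers of this kind, chosen as low in this line, were not all low. They summed to 846 to 940 CPM in ADAR1 p110 libraries and 719 to 828 CPM in GFP libraries, which did not overlap. Most of that came from GATA3, EPCAM and KRT18 together. Markers of the cell line that packages adenovirus summed to 0.0507 to 0.155 CPM in ADAR1 p110 libraries and 0.102 to 0.152 CPM in GFP libraries, with NEFM and LHX2 at 0 throughout. Leukocyte markers summed to 2.96 to 3.55 CPM in ADAR1 p110 libraries and 3.46 to 4.52 CPM in GFP libraries, with CD3E at 0 in all 6. Fibroblast and endothelial markers summed to 9.78 to 12.6 CPM in ADAR1 p110 libraries and 13.4 to 14.4 CPM in GFP libraries, which did not overlap. Nearly all of that was the collagen gene COL1A1, at 10.8 CPM in ADAR1 p110 cells and 13.9 CPM in GFP cells (edgeR adjusted p = 0.056). The part of these markers in the results was not tested.

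All 9 AP-1 genes passed the low-count filter, and 4 of them were higher in ADAR1 p110 cells, namely FOS, FOSB, JUN and JUND. None was called lower by edgeR, with 1 (FOSL1) at an unadjusted p under 0.05 and 0 by DESeq2 or limma-voom. The 4 of 9 stand beside the 1.95% of all tested genes that were higher. Without ADAR1 p110 replicate 1 and GFP replicate 2, 6 of 9 were higher, JUNB and ATF3 being added, beside 6.07% of all genes tested in that fit. The added calls carry the limit given above for libraries picked from these same data. The median log2 fold change was 0.20 for the 9 genes, taken as ADAR1 p110 over GFP, and 0.0048 for all tested genes. The libraries of the 2 groups did not overlap in CPM for 6 of the 9 genes, 5 of them higher and 1 lower in ADAR1 p110 cells. Among all tested genes 24.0% did not overlap, 11.8% higher and 12.2% lower.

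**Figure D1:**
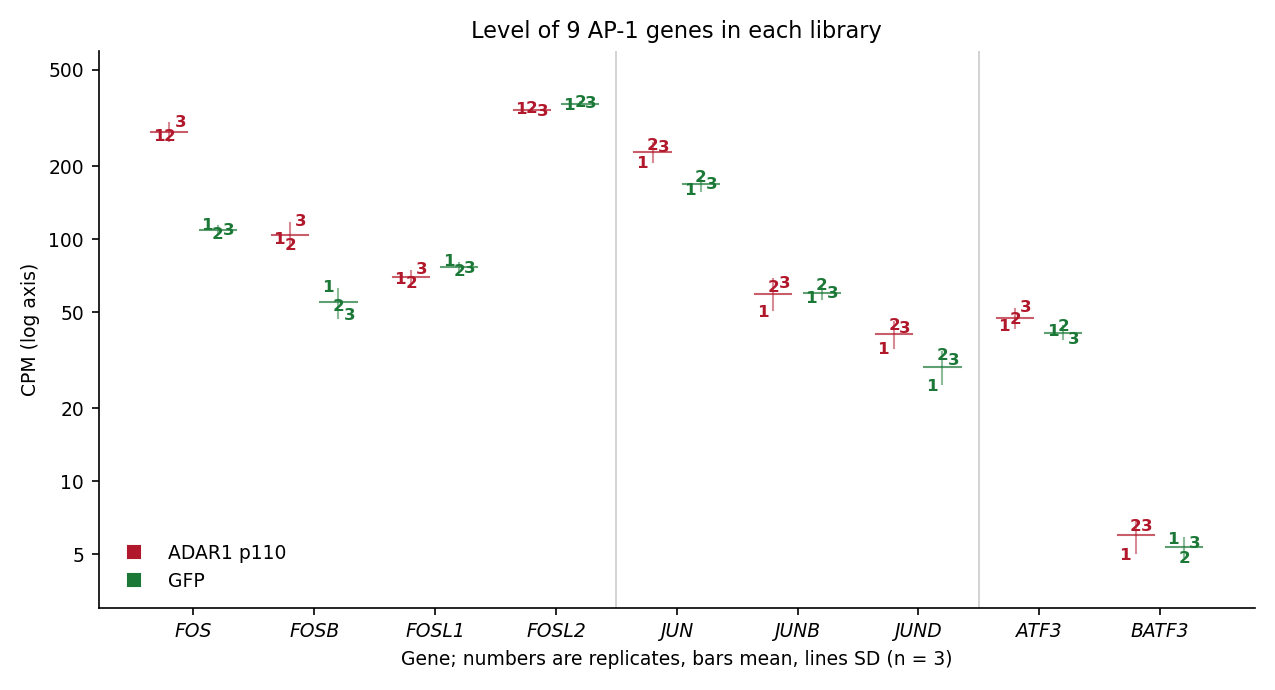
Log-scaled CPM of the 9 AP-1 genes, 1 point per library labelled by replicate, for ADAR1 p110 (red) and GFP (green), where horizontal bars are means and vertical lines are SD (n = 3). FOS averages 278 CPM in ADAR1 p110 and 109 CPM in GFP libraries and FOSB 104 CPM in ADAR1 p110 and 54.8 CPM in GFP libraries, with no overlap, while FOSL1, JUNB and BATF3 overlap.

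FOS, the founding member of its family, changed most. FOS (ENSG00000170345.9_3, hg19 chromosome 14, 75745477 to 75748933, plus strand) had 20085, 26131 and 23513 counts in ADAR1 p110 replicates 1 to 3, against 9851, 7593 and 10726 in the GFP replicates. Scaled for depth these were 264, 265 and 304 CPM in ADAR1 p110 libraries and 114, 105 and 109 CPM in GFP libraries. Every ADAR1 p110 library lay well above every GFP library, with replicate 3 the highest. FOS was 2.55-fold higher, with a 95% interval of 2.31 to 2.81 (log2 fold change 1.35, SE 0.065, edgeR adjusted p = 4.18e-07). It ranked 24 among the tested genes by p. Tested against a 1.5-fold change with glmTreat, FOS still passed (edgeR adjusted p = 1.33e-05), as did 0.0159% of tested genes in the upward direction. No other AP-1 gene passed that test. No gene of the table overlaps the FOS locus.

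FOSB encodes a second FOS protein with an activation domain, and its locus also makes the truncated form called deltaFosB, which gene counts do not resolve. FOSB (ENSG00000125740.13_3, hg19 chromosome 19, 45971253 to 45978437, plus strand) stood at 100, 93.9 and 119 CPM in ADAR1 p110 libraries, against 63.1, 52.8 and 48.5 CPM in GFP libraries. All 3 ADAR1 p110 values lay above all 3 GFP values, although the spread within each group was wider than for FOS. FOSB was 1.90-fold higher (95% interval 1.62 to 2.23, log2 fold change 0.93, SE 0.10, edgeR adjusted p = 0.000513). Its adjusted p against a 1.5-fold change was 0.155 (edgeR glmTreat). The repair gene ERCC1 lies across all of FOSB on the opposite strand and had 101% as many counts. The strand setting of the counting is not given, so reads of the pair cannot be told apart with certainty. ERCC1 was at 76.7 ± 2.74 CPM in ADAR1 p110 cells and 81.4 ± 8.62 CPM in GFP cells (log2 fold change -0.09, edgeR adjusted p = 0.605).

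The promoters of the 4 genes that rose are shown with that of FOSL2, which did not pass the test, to set the same window side by side. Each run is 300 bases, from 250 before the gene's start to 50 after it, from RefSeq on GRCh38.p14, a build other than that of the counts. Of the 9 genes 7 had a window, and FOSL1 and BATF3 had none. Capitals mark letters searched for on both strands: TGACTCA (the AP-1 site), TGACGTCA (the cAMP response element, CRE), TGACGT (its first 6 letters, contained in it) and TGACATCA (the site known from the JUN promoter). The windows are FOS at chr14:75278578-75278877 on the plus strand, FOSB at chr19:45467746-45468045 on the plus strand, JUN at chr1:58783998-58784297 on the minus strand, JUND at chr19:18281573-18281872 on the minus strand and FOSL2 at chr2:28392608-28392907 on the plus strand.
FOS: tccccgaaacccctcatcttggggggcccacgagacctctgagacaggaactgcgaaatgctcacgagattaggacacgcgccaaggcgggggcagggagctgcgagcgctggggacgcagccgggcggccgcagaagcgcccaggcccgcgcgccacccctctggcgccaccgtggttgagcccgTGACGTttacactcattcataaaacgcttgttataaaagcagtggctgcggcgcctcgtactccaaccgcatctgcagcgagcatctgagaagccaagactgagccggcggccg
FOSB: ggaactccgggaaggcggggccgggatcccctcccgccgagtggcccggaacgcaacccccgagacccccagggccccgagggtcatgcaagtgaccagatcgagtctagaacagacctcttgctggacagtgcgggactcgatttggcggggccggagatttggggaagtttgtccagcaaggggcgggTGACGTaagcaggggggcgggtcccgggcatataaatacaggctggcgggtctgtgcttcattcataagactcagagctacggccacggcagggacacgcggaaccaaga
JUN: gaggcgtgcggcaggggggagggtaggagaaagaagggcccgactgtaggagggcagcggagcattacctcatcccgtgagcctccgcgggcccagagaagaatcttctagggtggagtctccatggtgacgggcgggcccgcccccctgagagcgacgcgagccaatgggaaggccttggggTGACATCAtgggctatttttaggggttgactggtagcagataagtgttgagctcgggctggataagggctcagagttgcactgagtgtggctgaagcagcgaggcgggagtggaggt
JUND: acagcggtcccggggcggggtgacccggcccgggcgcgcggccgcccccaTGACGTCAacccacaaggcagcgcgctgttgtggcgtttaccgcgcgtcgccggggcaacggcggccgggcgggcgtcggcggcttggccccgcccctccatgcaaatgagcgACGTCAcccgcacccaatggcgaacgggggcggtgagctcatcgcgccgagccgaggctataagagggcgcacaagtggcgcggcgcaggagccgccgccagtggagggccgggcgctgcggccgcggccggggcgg
FOSL2: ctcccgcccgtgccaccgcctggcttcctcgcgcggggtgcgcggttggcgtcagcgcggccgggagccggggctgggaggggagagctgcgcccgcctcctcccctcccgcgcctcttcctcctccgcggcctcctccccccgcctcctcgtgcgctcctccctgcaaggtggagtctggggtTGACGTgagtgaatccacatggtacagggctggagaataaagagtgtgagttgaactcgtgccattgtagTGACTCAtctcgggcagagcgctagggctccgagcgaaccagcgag

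The FOS and FOSB windows were alike in layout. TGACGT lay at -64 to -59 in FOS and at -60 to -55 in FOSB, counted from the gene's start, and TATAAA, the TATA box, at -33 to -28 and at -30 to -25. JUNB, which did not pass the test with all libraries, also held TATAAA, at -31 to -26. FOSL2 held TGACGT at -66 to -61 and TGACTCA at 5 to 11. JUN held TGACATCA at -67 to -60, and a window of ATF3, which was not called with all libraries, held it at -123 to -116. JUND held the full TGACGTCA at -200 to -193 and TGACGT on the other strand at -87 to -82. Of 35114 windows in the RefSeq table, 7.98% held TGACGT, 1.85% TGACGTCA, 4.95% TGACTCA, 2.61% TGACATCA and 11.5% TATAAA, each counted on both strands. The gene FOSL2, which holds TGACGT at nearly the same place as FOS, had a log2 fold change of -0.08. Whether any of these sites bears on the changes was not tested. None of the 8 member windows, which include 2 for ATF3, held the CArG box bound by serum response factor (1.29% of windows) or a kappaB site (9.8%). The known serum response element of FOS lies upstream of the window shown.

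FOSL1 and FOSL2 did not follow FOS. FOSL1 (ENSG00000175592.8_3, hg19 chromosome 11, 65659520 to 65668044, minus strand) had 67.9, 65.8 and 74.7 CPM in ADAR1 p110 libraries and 80.5, 73.6 and 75.4 CPM in GFP libraries. The groups overlapped, since ADAR1 p110 replicate 3 exceeded GFP replicate 2. Its ratio was 0.908 with a 95% interval of 0.825 to 0.999 before adjustment for multiple tests (edgeR adjusted p = 0.265). FOSL2 (ENSG00000075426.11_3, hg19 chromosome 2, 28615315 to 28640179, plus strand) had 344, 347 and 338 CPM in ADAR1 p110 libraries and 356, 366 and 364 CPM in GFP libraries. These groups did not overlap, and the replicates lay closer together than for any other AP-1 gene, with coefficients of variation of 1.25% in ADAR1 p110 cells and 1.42% in GFP cells. The ratio was 0.948 (95% interval 0.884 to 1.02, edgeR adjusted p = 0.407), which spans both a small fall and no change.

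The make-up of the FOS transcripts therefore differed between the groups. Levels of different genes are compared per kilobase of the deposited gene length, which counts all annotated exons. FOS made up 44.5%, 45.0% and 46.5% of the summed CPM per kb of the 4 FOS genes in ADAR1 p110 libraries, against 25.3%, 24.5% and 25.3% in GFP libraries. The means were 45.3% ± 1.04 in ADAR1 p110 cells and 25.0% ± 0.439 in GFP cells (SD, n = 3 each). FOSL2 took 25.4% ± 1.74 in ADAR1 p110 cells and 37.6% ± 1.54 in GFP cells. FOSL1 took 19.4% ± 0.253 in ADAR1 p110 cells and 30.1% ± 0.591 in GFP cells. FOSB was the smallest, at 9.89% ± 0.649 in ADAR1 p110 cells and 7.32% ± 0.821 in GFP cells. None of these shares overlapped between groups, and each had an exact two-sided permutation p of 0.10, the smallest that 3 against 3 libraries allow. The shares are parts of the same sum, so a larger FOS share lowers the others. They are not separate results, and FOSL1 and FOSL2 were not called by their own levels. The sum of the 4 genes was 189 ± 11.1 CPM per kb in ADAR1 p110 cells and 135 ± 3.67 CPM per kb in GFP cells, a ratio of 1.41. By counts, with no division by length, FOS took 34.9% and FOSL2 43.2% in ADAR1 p110 cells, against 18.1% and 60.1% in GFP cells, so which gene leads in ADAR1 p110 cells depends on the scale.

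**Figure D2:**
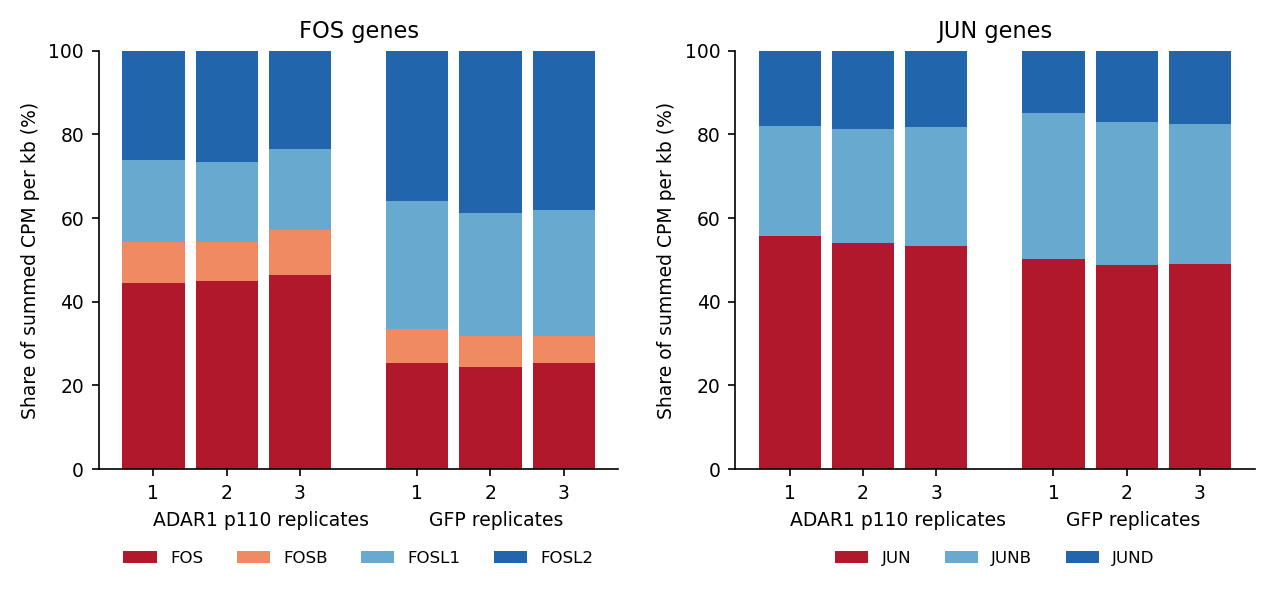
Share of each gene in the summed CPM per kb of the FOS genes (left) and the JUN genes (right), stacked to 100% for each library, with ADAR1 p110 replicates left of GFP replicates. FOS takes 44.5% to 46.5% of the FOS genes in ADAR1 p110 libraries and 24.5% to 25.3% in GFP libraries, while the JUN genes are shared out in the same order in all 6 libraries.

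JUN, which encodes c-Jun, rose by less than FOS. JUN (ENSG00000177606.6_2, hg19 chromosome 1, 59246460 to 59249999, minus strand) had 205, 243 and 239 CPM in ADAR1 p110 libraries and 159, 179.9 and 168 CPM in GFP libraries. All ADAR1 p110 libraries were above all GFP libraries, replicate 1 of ADAR1 p110 being the nearest to them. JUN was 1.35-fold higher (95% interval 1.21 to 1.51, log2 fold change 0.44, SE 0.072, edgeR adjusted p = 0.00554). Without ADAR1 p110 replicate 1 and GFP replicate 2 its log2 fold change was 0.56.

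JUND, the JUN gene known for steady expression in resting cells, passed the threshold narrowly. JUND (ENSG00000130522.5_3, hg19 chromosome 19, 18390570 to 18392432, minus strand) had 34.9, 44.1 and 42.9 CPM in ADAR1 p110 libraries and 24.7, 33.2 and 31.4 CPM in GFP libraries. The lowest ADAR1 p110 value was only just above the highest GFP value. JUND was 1.37-fold higher (95% interval 1.15 to 1.62, log2 fold change 0.45, SE 0.11, edgeR adjusted p = 0.0473). The call was lost without ADAR1 p110 replicate 2 or 3, or GFP replicate 1 or 3, with edgeR adjusted p between 0.103 and 0.171. The longest JUND transcript has a GC content of 69.9%, among the highest of 10 equal bins of tested genes, and the 1870 genes of that bin had a median log2 fold change of 0.09. With an offset for GC content in each library the log2 fold change of JUND was 0.37 (edgeR adjusted p = 0.0759), while FOS, FOSB and JUN stayed called at 1.36, 0.91 and 0.43.

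JUNB encodes a JUN protein that is a weaker activator than c-Jun and can oppose it. JUNB (ENSG00000171223.5_2, hg19 chromosome 19, 12902310 to 12904129, plus strand) had 49.6, 63.0 and 65.9 CPM in ADAR1 p110 libraries and 56.8, 64.3 and 59.4 CPM in GFP libraries. The groups overlapped widely, and ADAR1 p110 replicate 1 was the lowest of all 6. The ratio was 0.989 (95% interval 0.855 to 1.14, edgeR adjusted p = 0.96). The log2 fold change, -0.016, was 0.0071 with scaling by library size alone, which moved the median of all tested genes by a like amount, to 0.029. Without ADAR1 p110 replicate 1 and GFP replicate 2 JUNB was called higher at 0.15 (edgeR adjusted p = 0.0458). HOOK2 overlaps JUNB on the other strand over its whole length, with 17.5% as many counts.

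Among the JUN genes JUN led in every library, with 54.3% ± 1.26 of their summed CPM per kb in ADAR1 p110 cells and 49.4% ± 0.816 in GFP cells. JUNB took 27.4% ± 1.18 in ADAR1 p110 cells and 34.2% ± 0.611 in GFP cells. JUND took 18.3% ± 0.315 in ADAR1 p110 cells and 16.5% ± 1.41 in GFP cells. Each share had an exact two-sided permutation p of 0.10, the smallest possible. As parts of the same sum these shares too are not separate results, and JUNB was not called by its own level with all libraries. The sum of the 3 genes was 119 ± 13.2 CPM per kb in ADAR1 p110 cells and 96.8 ± 7.23 CPM per kb in GFP cells, and its libraries overlapped (exact two-sided permutation p = 0.20).

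ATF3, a stress-induced bZIP protein that represses as a homodimer, was slightly higher without passing the test. ATF3 (ENSG00000162772.16_3, hg19 chromosome 1, 212738676 to 212794119, plus strand) had 43.5, 46.4 and 52.0 CPM in ADAR1 p110 libraries and 41.5, 43.4 and 38.4 CPM in GFP libraries. The groups parted by a hair, ADAR1 p110 replicate 1 lying next to GFP replicate 2. The ratio was 1.15 (95% interval 1.03 to 1.29 before adjustment, edgeR adjusted p = 0.166). Without ADAR1 p110 replicate 1 it was called higher, at a log2 fold change of 0.26 (edgeR adjusted p = 0.0301), and at 0.30 without both outlying libraries. BATF3 (ENSG00000123685.8_2, hg19 chromosome 1, 212859760 to 212873327, minus strand) is known for its role in dendritic cells. It was the scarcest, at 4.94, 6.51 and 6.53 CPM in ADAR1 p110 libraries and 5.74, 4.80 and 5.53 CPM in GFP libraries. Its groups overlapped and its ratio was 1.12 (95% interval 0.928 to 1.35, edgeR adjusted p = 0.544).

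**Figure D3:**
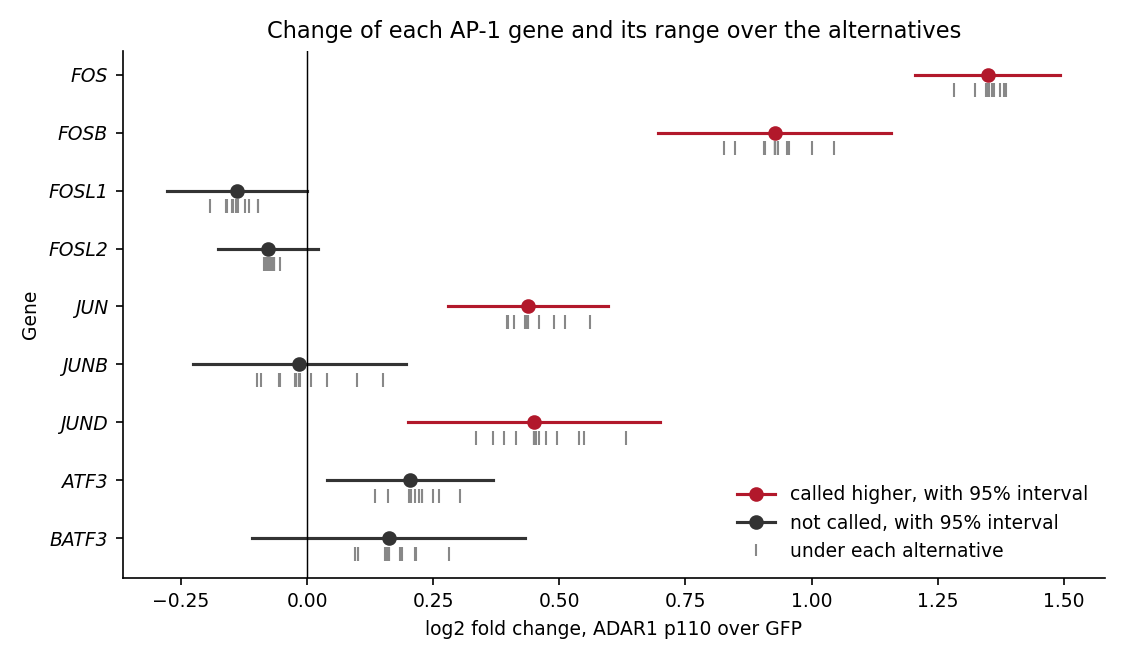
Horizontal axis, log2 fold change (ADAR1 p110 over GFP) of each AP-1 gene, with its 95% interval before adjustment, red for genes called higher and dark grey for the others, and the value under each of 15 alternatives as a tick below. FOS stays between 1.28 and 1.39 and JUN between 0.40 and 0.56, whereas the ticks of JUNB fall on both sides of 0.

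Per kilobase, the order of the 9 genes differed between the groups. In ADAR1 p110 cells FOS led at 85.8 ± 7.01 CPM per kb, followed by JUN at 64.6 ± 5.87, FOSL2 at 47.9 ± 0.601, FOSL1 at 36.8 ± 2.46 and JUNB at 32.7 ± 4.76 (SD, n = 3). JUND at 21.8, FOSB at 18.8, ATF3 at 11.7 and BATF3 at 2.21 CPM per kb came after them. In this group the library values of FOSL1 and JUNB overlapped, as did those of JUND and FOSB, and the other neighbours did not overlap. In GFP cells FOSL2 led at 50.5 ± 0.719 CPM per kb, followed by JUN at 47.7 ± 2.91, FOSL1 at 40.5 ± 1.90, FOS at 33.7 ± 1.37 and JUNB at 33.1 ± 2.10. There JUND stood at 16.0, ATF3 at 10.2, FOSB at 9.87 and BATF3 at 1.97 CPM per kb. Overlaps in GFP cells were between FOSL2 and JUN, FOS and JUNB, and ATF3 and FOSB. All 9 genes summed to 322 ± 21.9 CPM per kb in ADAR1 p110 cells and 244 ± 4.18 CPM per kb in GFP cells, with no overlap (exact two-sided permutation p = 0.10, the smallest possible).

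Within a group the 3 JUN genes deviated in the same direction in every library but GFP replicate 3. In ADAR1 p110 replicate 1 JUN, JUNB and JUND lay 0.15, 0.25 and 0.21 below their group's mean on the log2 CPM scale, and BATF3 0.27 below it. In the same library FOS and FOSB were at -0.07 and -0.05. In GFP replicate 1 JUN, JUNB and JUND were at -0.08, -0.08 and -0.26, while FOS and FOSB were at 0.06 and 0.21. In ADAR1 p110 replicate 3 FOS, FOSB and FOSL1 were all above the mean, at 0.13, 0.19 and 0.11. FOSL2 stayed within 0.024 of the mean in all 6 libraries. These are descriptions of 6 libraries that share depth and preparation within each library.

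**Figure D4:**
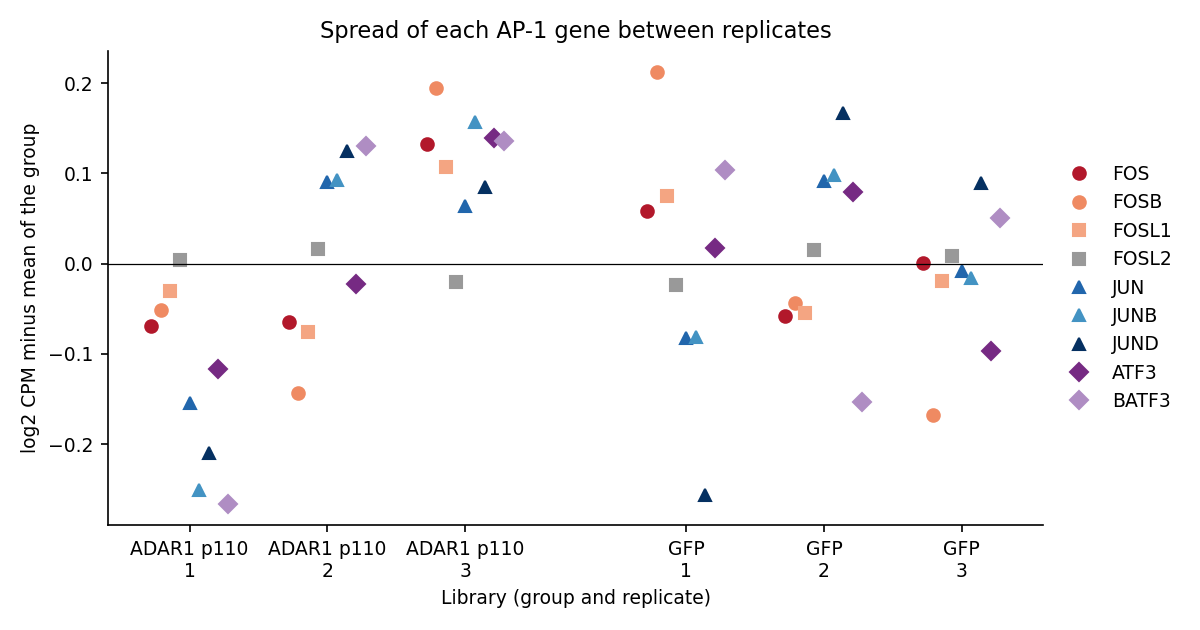
Log2 CPM of each AP-1 gene minus the mean of its group (vertical axis) in each library, with circles and squares for FOS genes, triangles for JUN genes and diamonds for ATF3 and BATF3. The 3 JUN genes lie at -0.15 to -0.25 in ADAR1 p110 replicate 1, whereas FOSL2 stays close to 0 throughout.

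The genes whose profile lay closest to that of FOS were sought among 10680 other tested genes that had a named symbol and a mean of 5 CPM or more in at least 1 group. Likeness was the root mean square difference of centred log2 CPM over the 6 libraries, which mostly measures the size of the group difference. FOSB was closest at 0.23, then the transcription factor gene KLF2 at 0.24 and ADAR at 0.30. TTC30B, a ciliary transport gene, followed at 0.34, with ID1, an inhibitor of basic helix-loop-helix factors, also at 0.34 and the histone gene HIST1H2BM at 0.35. AGPS, on the opposite strand, overlaps TTC30B and had 3078% of its counts, so the TTC30B value is uncertain, and HIST1H2BM belongs to a family of near-identical genes.

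Other bZIP genes, many of which can pair with FOS or JUN proteins, mostly did not pass the test. Of 33 listed 31 were tested, of which 1 was higher and 3 were lower, and the list median was -0.06 (log2 fold change). These calls make 12.9% of the list, beside 4.91% of all tested genes. MAFK, a small MAF protein without an activation domain, averaged 28.0 ± 1.70 CPM in ADAR1 p110 cells and 23.5 ± 0.288 CPM in GFP cells. ATF2, a partner of c-Jun, was lower at 78.0 ± 4.56 CPM in ADAR1 p110 cells against 91.3 ± 1.57 CPM in GFP cells, and the related CREB3 at 92.8 ± 4.35 CPM in ADAR1 p110 cells against 115 ± 5.06 CPM in GFP cells. NFE2L3 was lower at 241 ± 21.7 CPM in ADAR1 p110 cells against 302 ± 8.31 CPM in GFP cells. These calls were fragile. Those of MAFK and ATF2 were lost in 5 of 6 fits that left out a library, all but the one without ADAR1 p110 replicate 1. The NFE2L3 call was lost without ADAR1 p110 replicate 2 or any GFP replicate. That of CREB3 was lost on leaving out ADAR1 p110 replicate 3, GFP replicate 1 or GFP replicate 3. With the offset for GC content MAFK was not called (log2 fold change 0.17, edgeR adjusted p = 0.12), while ATF2, CREB3 and NFE2L3 stayed lower. The list then gave 0 higher and 6 lower, beside 429 higher and 653 lower among all genes tested with that offset. The list gave 7 calls without ADAR1 p110 replicate 1, 0 without GFP replicate 1 or 3, and 2 higher and 8 lower when both ADAR1 p110 replicate 1 and GFP replicate 2 were left out. In that last fit 6.07% of all tested genes were higher and 7.32% lower. MAFK overlaps TMEM184A (42.3% as many counts), and CREB3 overlaps GBA2 (55.9%) and TLN1 (928%), each on the other strand.

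Of 40 genes of the MAP kinase modules 3 were higher and 2 lower, with a median log2 fold change of -0.03. The share called was 12.5%, beside 4.91% of all tested genes. MAP2K6, a kinase that activates p38, was higher at 3.09 ± 0.393 CPM in ADAR1 p110 cells against 1.74 ± 0.119 CPM in GFP cells (log2 fold change 0.83, edgeR adjusted p = 0.00548). MAPKAPK2, a kinase downstream of p38, averaged 39.8 ± 2.29 CPM in ADAR1 p110 cells against 31.0 ± 1.06 CPM in GFP cells, and MAP3K3 averaged 47.3 ± 2.36 CPM in ADAR1 p110 cells against 37.8 ± 1.23 CPM in GFP cells. The MAP3K3 call was lost without ADAR1 p110 replicate 3. MAP3K8, the kinase TPL2 that feeds ERK in inflammatory signalling, was lower at 11.4 ± 0.852 CPM in ADAR1 p110 cells against 19.0 ± 0.539 CPM in GFP cells (log2 fold change -0.74, edgeR adjusted p = 0.00019). MAP3K5, the stress kinase ASK1, was also lower at 22.7 ± 0.228 CPM in ADAR1 p110 cells against 30.3 ± 1.11 CPM in GFP cells. The list gave 8 calls without ADAR1 p110 replicate 1, and 5 higher and 6 lower without GFP replicate 2 as well. All genes tested without both gave 6.07% higher and 7.32% lower. Kinase activity was not measured by these counts.

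Regulators that act at the FOS promoter, such as SRF, its ELK partners and CREB1, gave 0 calls of 15 with edgeR, with 4 at an unadjusted p under 0.05, 2 called by DESeq2 and 0 by limma-voom. Among all tested genes edgeR called 4.91%. The list median was -0.0078. Its most abundant member, YY1, was at 139 ± 1.65 CPM in ADAR1 p110 cells and 140.1 ± 8.16 CPM in GFP cells. Without ADAR1 p110 replicate 1 the list gave 5 calls, and 1 higher and 5 lower without GFP replicate 2 as well. With both left out, 6.07% of all tested genes were higher and 7.32% lower.

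Genes known as AP-1 targets were more often lower than higher. Of 33 tested, 14 were lower and 2 higher, or 48.5% called, and the list median was -0.26 (log2 fold change). Among all tested genes 2.96% were lower and 1.95% higher, so lower calls also outnumbered higher ones there. With ADAR1 p110 replicate 1 and GFP replicate 2 left out the list gave 17 lower and 2 higher. All genes tested in that fit gave 7.32% lower and 6.07% higher. CXCL8, a neutrophil chemokine, was at 28.4 ± 3.31 CPM in ADAR1 p110 cells against 335 ± 10.6 CPM in GFP cells, and the cytokine gene IL6 at 66.4 ± 4.55 CPM in ADAR1 p110 cells against 199 ± 5.46 CPM in GFP cells. Both are also known targets of NF-kappaB. The 2 that were higher were the phosphatase gene DUSP1, at 159 ± 11.8 CPM in ADAR1 p110 cells against 109 ± 4.15 CPM in GFP cells, and the cyclin gene CCND1, at 296 ± 4.06 CPM in ADAR1 p110 cells against 236 ± 5.41 CPM in GFP cells. These 4 calls were kept in each fit that left out a library.

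Immediate early genes outside the AP-1 family moved in both directions, more often higher than lower. Of 37 tested, 10 were higher and 3 were lower, or 35.1% called, and their median was 0.08 (log2 fold change). Among all tested genes 4.91% were called, 1.95% higher and 2.96% lower. The higher ones included ID1 at 138 ± 14.6 CPM in ADAR1 p110 cells against 83.9 ± 5.50 CPM in GFP cells, KLF2 at 5.54 ± 1.03 CPM in ADAR1 p110 cells against 2.65 ± 0.300 CPM in GFP cells and DUSP1, given above. EGR1, a zinc finger factor induced beside FOS, averaged 31.0 ± 2.33 CPM in ADAR1 p110 cells against 22.3 ± 2.03 CPM in GFP cells, and its call was lost without GFP replicate 1. The lower ones were IER3 at 497 ± 31.3 CPM in ADAR1 p110 cells against 961 ± 20.2 CPM in GFP cells, DUSP5 at 175 ± 5.24 CPM in ADAR1 p110 cells against 233 ± 2.68 CPM in GFP cells and TRIB1 at 17.9 ± 0.379 CPM in ADAR1 p110 cells against 22.0 ± 0.907 CPM in GFP cells. The TRIB1 call was kept only without ADAR1 p110 replicate 1 and without GFP replicate 2 among the fits with a library left out. With both libraries that lay apart left out, 14 were higher and 3 lower, beside 6.07% and 7.32% of all genes tested in that fit. The list gave 7 calls on leaving out ADAR1 p110 replicate 3, GFP replicate 1 or GFP replicate 3.

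Genes of the integrated stress response, which induces ATF3 through ATF4, gave 1 call of 20. This was SLC7A5, an amino acid transporter gene, at 363 ± 14.2 CPM in ADAR1 p110 cells against 291 ± 16.6 CPM in GFP cells, a call lost without GFP replicate 1. Factors that act on AU-rich mRNAs, among them the FOS transcript, gave 1 call of 16. ZFP36, which encodes the decay factor tristetraprolin, was higher at 15.3 ± 1.62 CPM in ADAR1 p110 cells against 10.3 ± 1.51 CPM in GFP cells, though the call did not hold without ADAR1 p110 replicate 3 or without GFP replicate 1. With all libraries these calls make 5% and 6.25% of the lists, near the 4.91% of all tested genes called. Without ADAR1 p110 replicate 1 and GFP replicate 2 the stress response list gave 4 higher and 0 lower of 20. The decay factor list then gave 2 higher and 1 lower of 16. All genes tested without those 2 libraries gave 6.07% higher and 7.32% lower, 13.4% in all.

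**Figure D5:**
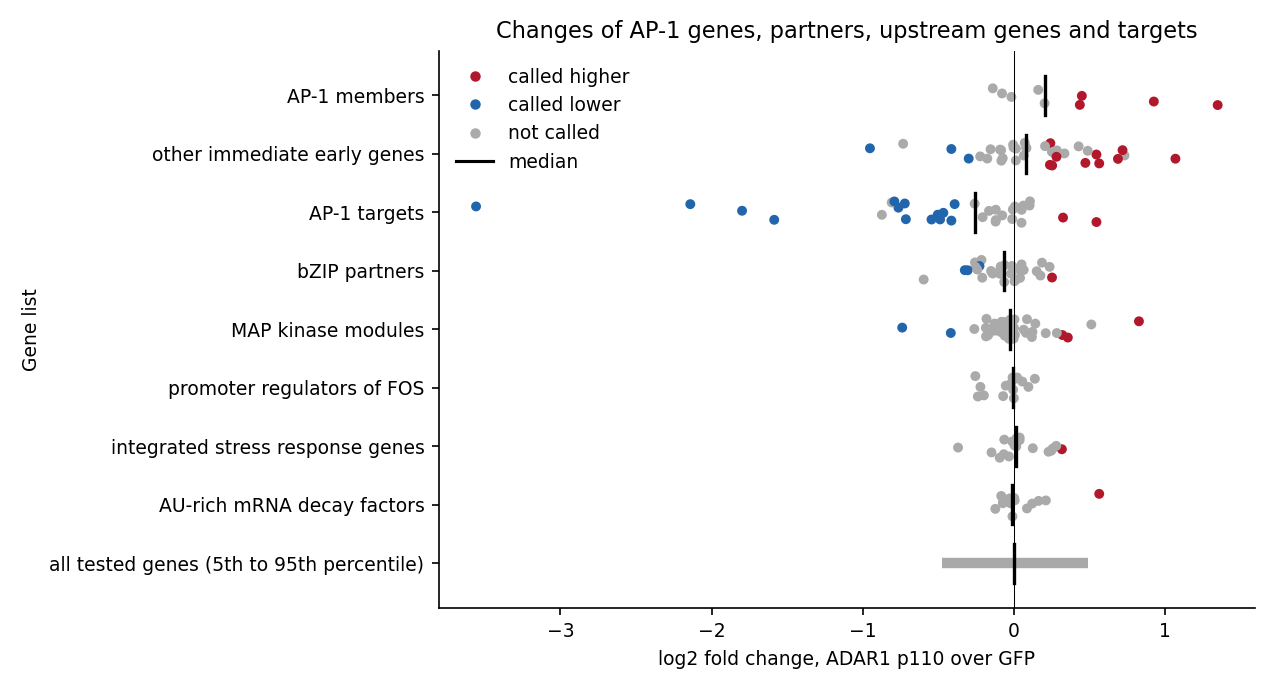
Horizontal axis, log2 fold change (ADAR1 p110 over GFP) of the tested genes of each list, with red for genes called higher, blue for genes called lower, grey for the others and a black bar at the list's median. The grey band spans the 5th to 95th percentile of all tested genes, -0.47 to 0.49, beside which the AP-1 targets reach to the left as far as CXCL8 at -3.56.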

How the data were processed

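Counts per gene came from 1 deposited table of 60461 genes. The authors used STAR 2.5.2a for alignment (hg19) and featureCounts 1.5.1 for counting, and DESeq2 1.4.5 is also listed, per the submitters' processing notes. As deposited these are unnormalised integer counts. Per the labels' protocols a stranded total RNA kit was used. Whether counting used the strand is not given in the sources used here. No row lacked a gene name.

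Groups and replicate numbers came from sample titles, and columns from the names quoted in the labels. Genes kept by filterByExpr (minimum count 10) were scaled by TMM and tested with glmQLFit and glmQLFTest of edgeR 4.0.16 (R 4.3.3) in a model of group alone. Adjustment was by Benjamini-Hochberg over all 18899 tested genes, with a threshold of 0.05. The SE is the log2 fold change divided by the square root of F, and 95% intervals use it with the fit's degrees of freedom. A count of 0 allows up to 3 counts, or 0.0304 to 0.0414 CPM, covering counting error only. Gene lists were matched by symbol, and PECAM1 was not matched. The fits were tested on simulated data.

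Alternatives were library size alone, DESeq2 1.42.0 size factors and Wald test, limma-voom 3.58.1, no low-count filter, removal of ADAR counts, the replicate number as a block, and leaving out libraries. An offset for the GC content of each gene, in 10 bins (98.9% of tested genes matched to GENCODE transcripts on GRCh37) was chosen after seeing the data. Genes were named by a rule: the 9 members, ADAR, overlapping genes, up to 4 called genes in each direction per list with the smallest p (the most abundant where none was called), and the 6 profiles closest to FOS. Some genes that the rule names are not reported here. Markers were named from marker lists, in part after their values were seen. The members and lists were chosen with earlier results of these data known. Replicates of a group differed by more than sampling noise, with a chi-square of 7.94 to 35.4 per degree of freedom.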

Additional observations from a re-analysis of the deposited data

How the results depend on the processing

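Calls and directions of FOS, FOSB and JUN were kept under all 15 alternatives, as were the missing calls of FOSL1, FOSL2 and BATF3. AP-1 genes called higher numbered 3 to 5 when 1 library was left out and 6 without ADAR1 p110 replicate 1 and GFP replicate 2. JUND ran from 0.34 to 0.55 and ATF3 from 0.13 to 0.26 (log2 fold change) when 1 library was left out. JUNB ran from -0.091 to 0.099 there, was 0.0071 with library size alone, and was 0.15 without ADAR1 p110 replicate 1 and GFP replicate 2, where ATF3 was 0.30. With the GC offset JUND was 0.37.

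All genes called numbered 742 higher and 811 lower with no low-count filter, and 591 higher and 711 lower with DESeq2. They numbered 100 to 795 higher and 296 to 1017 lower when 1 library was left out. Without ADAR1 p110 replicate 1 and GFP replicate 2 they numbered 1181 higher and 1424 lower. Calls in bZIP partners were 7 with no filter and with DESeq2, 0 to 7 with 1 library left out and 10 without those 2 libraries. For MAP kinase modules the last 2 settings gave 4 to 8 and 11. For FOS promoter regulators they gave 0 to 5 and 6, against 3 with no filter, 2 with DESeq2 and 1 with the GC offset. Other immediate early genes gave 7 to 15 with 1 library left out. Integrated stress response genes gave 3 with no filter, 2 with DESeq2, 2 with the GC offset, 0 to 1 with 1 library left out and 4 without the 2 libraries. AU-rich mRNA decay factors gave 0 to 1 and 3 in the last 2 settings. The cause was not tested.

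With the replicate block 175 genes were higher and 333 lower, and bZIP partners, other immediate early genes and integrated stress response genes gave 1, 8 and 0 calls. No AP-1 call changed under the block. The deviations of same-numbered libraries had correlations of -0.11, -0.03 and 0.04, and 1 of 6 libraries correlated best with its own number. JUN, JUNB and JUND, however, lay below the group mean in replicate 1 of both groups and above it in replicate 2 of both. In replicate 3 JUN and JUNB differed in sign between the groups, as did FOS and FOSB in replicate 1. The SE of JUND was 0.065 with the block and 0.113 without it. Whether same-numbered libraries share a batch was not tested.

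Without division by length, the shares in the 2 groups, in this order throughout, were 34.9% (ADAR1 p110) and 18.1% (GFP) for FOS, 13.1% and 9.09% for FOSB, 8.74% and 12.7% for FOSL1, and 43.2% and 60.1% for FOSL2. They were 69.6% and 65.3% for JUN, 18.0% and 23.2% for JUNB, and 12.3% and 11.5% for JUND. On this scale the JUND shares overlapped between the groups (exact two-sided permutation p = 0.2), unlike those per kilobase. By this alternative's construction long genes weigh more. The lowest counts among the AP-1 genes were those of BATF3, 348 to 641 a library.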

Other observations

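The windows at the starts of FOS and FOSB shared a run of 10 bases, TCATTCATAA, at -52 to -43 in FOS and at -2 to 8 in FOSB. It was the longest run common to both and was found, on either strand, in 18 of 35114 RefSeq windows. It was noticed after the values of both genes were known.

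Tested genes were put into 10 equal bins by GC content of their longest transcript. The highest bin, 61.1% to 86.4% GC, held 98 of the higher and 48 of the lower calls, whereas the lowest held 17 and 44. JUNB and JUND belong to the highest bin, FOSB and FOSL1 to the next one. In the highest bin the median log2 CPM of ADAR1 p110 replicate 1 lay 0.048 below its group's mean, and in the lowest bin 0.086 above it. JUND was at -0.21 and JUNB at -0.25 in that library.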
